A study of Xenopus laevis with 12 samples.

Results

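The genes described here encode the proteins of the mitochondrial ribosome. They were chosen by name alone, as every gene model whose symbol, with the ending for its copy removed, begins with mrpl or mrps and a digit. This gave 85 of 45099 gene models, with 51 named for the large subunit (mrpl) and 34 for the small subunit (mrps). They belong to 61 different symbols, because Xenopus laevis keeps many genes as a long (.L) and a short (.S) copy from an ancestral genome duplication.

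Mitochondria carry their own ribosome, which translates the few proteins encoded by mitochondrial DNA, all of them subunits of the respiratory chain and ATP synthase. The ribosomal RNAs come from mitochondrial DNA, while the ribosomal proteins are encoded in the nucleus, translated on cytosolic ribosomes and imported. Many of these proteins descend from bacterial ribosomal proteins, and others have no bacterial counterpart. Retinal ganglion cells, whose axons form the optic nerve, have long axons that hold many mitochondria.

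The data come from translating ribosome affinity purification (TRAP) of retinal ganglion cells, in which RNA on tagged cytosolic ribosomes is pulled down and sequenced. All frogs carried the transgene EGFP-RPL10a, a tagged protein of the cytosolic large subunit, under an islet2b promoter, and were progeny (F1) of single female founder lines. They were past metamorphosis, over 6 months old, with retinas of 10 frogs per condition. Per the extraction protocol, equal amounts of RNA from 3 biological replicates were pooled, so that each condition is 1 library. The 12 libraries comprised total retina RNA (1), TRAP RNA of unoperated frogs (naive, 1), of the left and right eye of sham-operated frogs at day 1 (2), and of the crushed right eye (4) and the untreated contralateral left eye (4) at days 1, 3, 7 and 11 after optic nerve crush. In 1 sentence of the design text the left eye is named as crushed; the sample labels, which give the right eye, were followed.

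Libraries held 16820571 to 63299998 estimated counts, of which the mitochondrial ribosomal protein genes took 0.122% in total retina and 0.196% to 0.209% in the 7 uninjured TRAP libraries (naive, sham and contralateral). No pair of uninjured libraries agreed within sampling noise. The 17 gene models of the ganglion cell markers summed to 1249.6 TPM (a gene's share of all transcripts, corrected for length) in total retina and to 8253.9 to 8975.4 TPM in the uninjured TRAP libraries, as the label of the TRAP libraries has it. They summed to 8187.0 TPM at day 1 after crush, 3635.9 at day 3, 662.94 at day 7 and 747.19 at day 11. The ganglion cell genes rbpms.L and slc17a6.L were at 0 at days 7 and 11, but both were scarce. slc17a6.L had an uninjured mean of only 0.10 CPM (read counts scaled by library size and TMM factor). rbpms.L did not pass the filter on low counts. The other copy, slc17a6.S, went from 12.75 to 18.35 CPM without injury to 4.23 and 0.98 CPM at days 7 and 11. In RNA from whole retinas, fewer cells of a type and less RNA per cell cannot be told apart. In the TRAP libraries a change in the tag, or in the cells that carry it, cannot be told apart from these either. The same holds for every value below.

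Most mitochondrial ribosomal protein genes were expressed in uninjured ganglion cell RNA at modest levels. The median over the 81 genes that passed the filter on low counts was 35.8 TPM as a mean of the uninjured libraries, and 72 genes reached 10 TPM. The highest was mrps6.S, which encodes the counterpart of bacterial S6 in the small subunit, at 272 TPM. Next came mrpl20.L at 125 TPM and mrpl18.L at 121 TPM, for counterparts of bacterial L20 and L18. They were followed by mrpl55-like.L at 109 TPM, mrpl11.L at 101 TPM and mrpl33.L at 87.4 TPM, named for the counterparts of bacterial L31, L11 and L33. At the other end, mrpl17.L, mrps15.S and mrps24.L had no count in any TRAP library, and mrpl44.L had 1 count in all 11 of them. The other copies of the same genes, mrpl17.S, mrps15.L, mrps24.S and mrpl44.S, were expressed at 20.3 to 58.0 TPM. Near-identical copies can share reads, so the division between .L and .S is less certain than their sum.

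Naive TRAP RNA held more of these transcripts than total retina RNA. The median log2 ratio of naive TRAP to total retina was 0.71 over the 81 genes, against -0.22 over all genes tested, and 69 of the 81 lay above 0. In 61 genes all 7 uninjured TRAP libraries lay above total retina, and in 4 all lay below. The same counts were not made over all genes, so these cannot be set against a background. mrpl20.L stood at a log2 ratio of 1.99, with the uninjured libraries between 1.55 and 1.99, and mrps6.S at 1.71, with the others between 1.51 and 1.85. mrps2.L, for the counterpart of bacterial S2, went the other way at -0.90, with the uninjured libraries between -1.11 and -0.72. All of these ratios share the 1 total retina library, so its error is in each of them, and no test was made.

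After crush the mitochondrial ribosomal protein genes were on balance slightly lower than in uninjured eyes at day 1, mixed at day 3, and mostly higher at days 7 and 11. The median deviation from the uninjured mean over these genes was -0.17 on the log2 scale at day 1 and -0.02 at day 3, against -0.06 to 0.06 in the single uninjured libraries. The log2 ratio of the crushed to the contralateral eye, with 200 counts or more over the pair of libraries, had a median of -0.15 at day 1, -0.04 at day 3, 0.64 at day 7 and 0.81 at day 11. Over all genes the medians were -0.00, -0.02, 0.10 and 0.01. Between the right and left sham eyes the median of the mitochondrial ribosomal protein genes was -0.03.

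At day 1, 23 of 78 genes lay above 0 (49.3% of all genes). Of these 78, 0 were over 2-fold higher (1.33% of all genes) and 1 over 2-fold lower, mrps11.S at -1.05 (0.76% of all genes). At day 3, 36 of 76 lay above 0 (48.7% of all genes). Of these 76, 0 were over 2-fold higher (7.97% of all genes) and 2 over 2-fold lower, mrpl36.S at -1.21 and mrpl14.L at -1.11 (5.62% of all genes). These 3 genes were picked for their values, not by the naming rule. At day 7, 68 of 77 lay above 0 (54.2% of all genes). Of these 77, 19 were over 2-fold higher (19.7% of all genes) and 0 over 2-fold lower (15.8% of all genes). At day 11, 70 of 77 lay above 0 (50.6% of all genes). Of these 77, 26 were over 2-fold higher (18.8% of all genes) and 0 over 2-fold lower (20.1% of all genes). In the sham pair 30 of 76 lay above 0 (48.8% of all genes). None was 2-fold apart in either direction, where 0.464% of all genes were higher and 0.895% lower. Each ratio sets 1 library against 1, so a single day has no test.

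**Figure D1:**
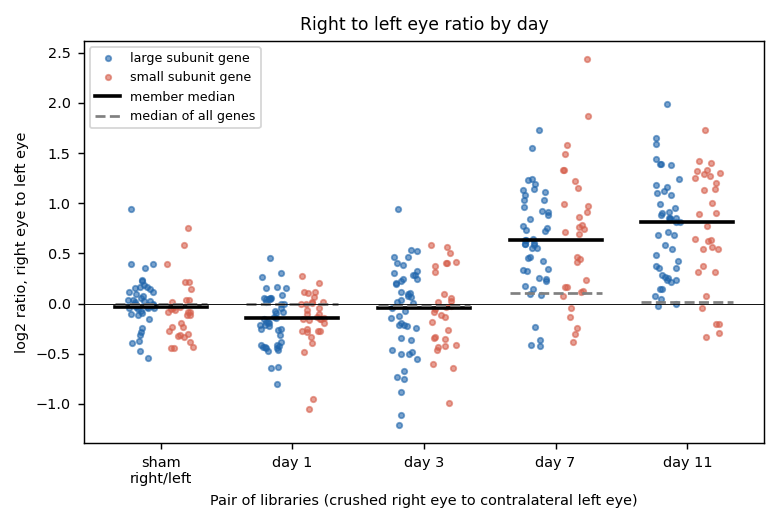
Log2 ratio of the right to the left eye (TMM-scaled CPM) for each mitochondrial ribosomal protein gene with 200 counts over the pair, in the sham pair and at each day after crush, with 1 point per gene. Black lines are medians of these genes (-0.03 for sham, then -0.15, -0.04, 0.64 and 0.81) and dashed lines are medians of all genes, and at days 7 and 11 most points lie above 0.

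The late change was tested by setting the crushed eyes of days 7 and 11 (2 libraries) against the 7 uninjured TRAP libraries. Of the 81 genes tested, 53 rose (65.4%), 0 fell and 28 passed in neither direction, in edgeR's quasi-likelihood test with Benjamini-Hochberg adjustment over all genes at a threshold of 0.05. Over all 30851 genes tested, 22.5% were called higher and 22.6% lower. The median log2 fold change of the mitochondrial ribosomal protein genes was 0.67, against -0.11 for all genes. Above 0 lay 71 of the 81, and 14206 of all 30851 genes tested. In 55 genes (67.9%) both late libraries lay above all 7 uninjured ones, as they did for 23.9% of all genes. In 2 genes (2.47%), mrps7.L and mrpl40.S, both lay below, against 23.2% of all genes.

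The count depends on how libraries are scaled. With total counts in place of TMM, 43 genes were higher and 6 lower (mrpl14.L, mrpl40.S, mrps34.S, mrps36.S, mrps6.S and mrps7.L), where 16.5% of all genes were higher and 29.4% lower, and the median of all genes moved from -0.11 to -0.38. Relative to that median, the mitochondrial ribosomal protein genes stood 0.78 higher on the log2 scale with TMM and 0.77 higher with total counts. A change of scaling shifts all genes of a library nearly alike. This difference could therefore hardly change and is no check of the scaling. The 2 late libraries are the only replicates of the late state, and they differ in day.

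**Figure D2:**
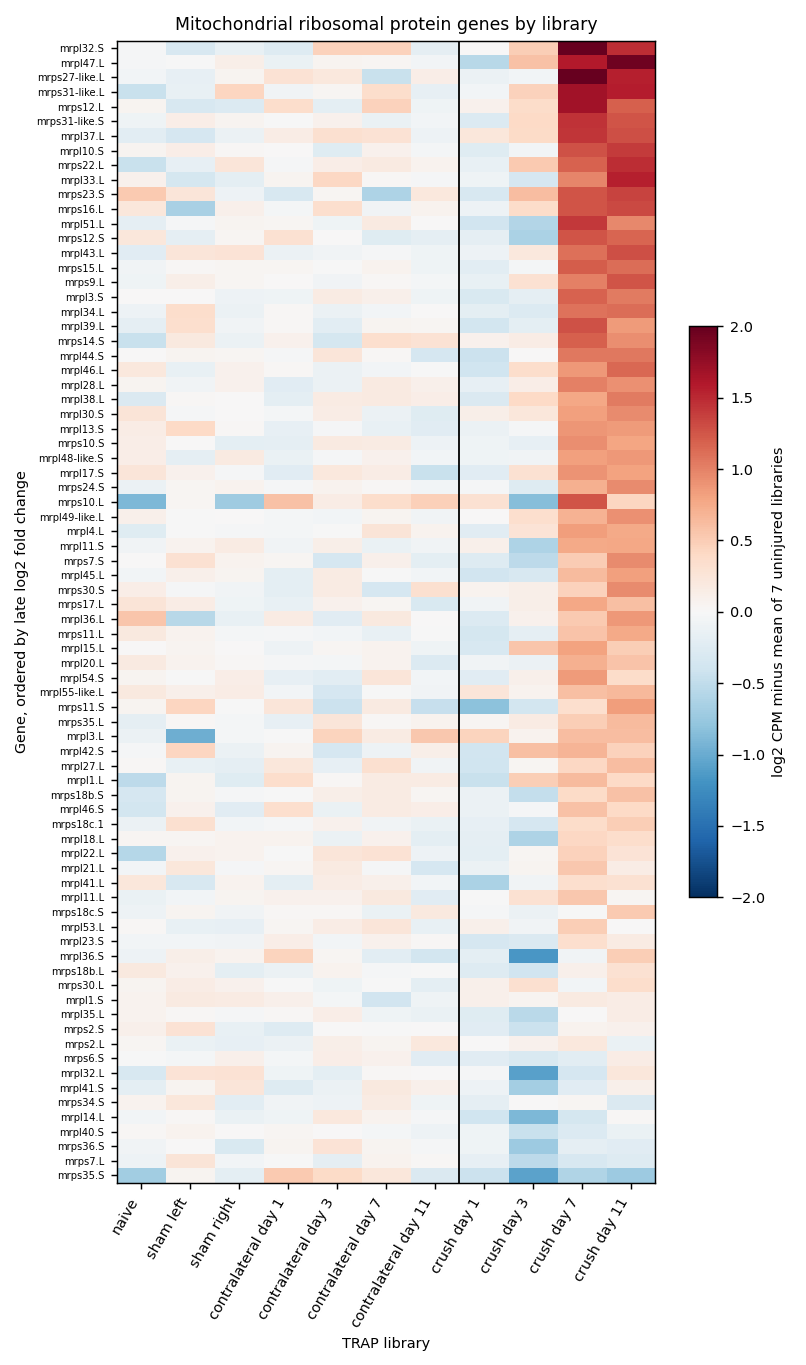
Log2 CPM of the 78 mitochondrial ribosomal protein genes with 200 counts or more over the TRAP libraries, as the difference from the mean of the 7 uninjured libraries, with genes in rows ordered by their late log2 fold change and libraries in columns. The columns of crush days 7 and 11, at the far right, are red for most genes, and those of crush days 1 and 3 and of the uninjured eyes are pale or mixed.

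Genes named for either subunit took part. The division is by symbol alone, so the small subunit counts include mrps30 and mrps36, whose proteins are placed elsewhere in this text. In the large subunit 32 of 49 genes tested rose and 0 fell, with a median log2 fold change of 0.66, and in the small subunit 21 of 32 rose and 0 fell, with a median of 0.70. Proteins with a bacterial counterpart had 32 of 48 genes higher (median 0.67), and those without had 21 of 32 (median 0.71). The .L copies had 30 of 45 higher and the .S copies 22 of 34. The fold change had little relation to the level of a gene before injury: across the 81 genes, Spearman's rho between uninjured TPM and late log2 fold change was -0.16, and between model length and fold change -0.08. Genes share libraries and are not independent replicates, and these values are descriptions.

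In the large subunit the 2 highest fold changes among genes with 200 counts were those of mrpl32.S and mrpl47.L. mrpl32 encodes the counterpart of bacterial L32, a protein that in yeast and mouse is trimmed to its mature form by the m-AAA protease of the inner membrane. In CPM, read counts scaled by library size and TMM factor, mrpl32.S lay at 7.74 at the lowest, 8.68 at the median and 13.3 at the highest of the uninjured libraries. In the crushed eye it was at 9.68 CPM at day 1, 13.6 at day 3, 44.2 at day 7 and 26.9 at day 11. The late libraries lay apart from all uninjured ones, and the log2 fold change was 1.86 ± 0.20 (standard error; edgeR adjusted p = 2.91e-08).

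mrpl47 encodes the counterpart of bacterial L29, which lies by the exit of the tunnel for the new protein. mrpl47.L ranged from 16.6 CPM through a median of 18.1 to 19.7 CPM in the uninjured libraries. In the crushed eye it had 12.3 CPM at day 1, below all of these, and then 27.3, 54.8 and 69.9 CPM at days 3, 7 and 11, above all of them. Its late log2 fold change was 1.78 ± 0.13 (edgeR adjusted p = 5.44e-12). mrpl10.S, for the protein that anchors the stalk of the large subunit, was at 20.9, 25.2 and 27.1 CPM (lowest, median and highest) without injury. It had 20.95 CPM at day 1 after crush, 23.9 at day 3, 60.3 at day 7 and 65.7 at day 11, so that it stood above every uninjured library at days 7 and 11 and within their range at the other times. The late log2 fold change of mrpl10.S was 1.34 ± 0.12 (edgeR adjusted p = 7.05e-10).

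Of the abundant genes of the large subunit, mrpl33.L rose by 1.28 ± 0.16 on the log2 scale (edgeR adjusted p = 2.28e-07), from 15.4 to 26.1 CPM without injury to 38.8 and 58.0 CPM at days 7 and 11. mrpl20.L rose by 0.63 ± 0.12 (5.40e-05) and mrpl55-like.L by 0.61 ± 0.14 (0.000504). mrpl18.L rose by 0.38 ± 0.11 (0.00662), a call that was lost with total counts (log2 fold change 0.11, edgeR adjusted p = 0.470). mrpl11.L had a log2 fold change of 0.31 ± 0.13 and did not pass (edgeR adjusted p = 0.0676). It passed in 6 of 17 alternatives, and its value depended on the late library left out, with 0.06 without crush day 7 (0.791) and 0.57 without crush day 11 (0.00291), over a range of adjusted p from 0.00291 to 0.848.

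In the small subunit the highest late values were those of mrps27-like.L, the copies of mrps31-like, and mrps12.L. MRPS27 and MRPS31, after which the first genes are named, are proteins without a bacterial counterpart, and mrps12 encodes the counterpart of S12, a protein of the decoding centre. mrps27-like.L lay between 7.84 and 13.1 CPM in the uninjured libraries, with a median of 11.1. It had 9.95 and 10.4 CPM at days 1 and 3 after crush, within that range, and 42.7 and 31.8 CPM at days 7 and 11, above it, for a log2 fold change of 1.77 ± 0.17 (edgeR adjusted p = 2.35e-09).

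mrps31-like.L lay between 5.91 and 10.9 CPM without injury, with a median of 7.62, and at 7.72, 11.1, 25.8 and 23.8 CPM at days 1, 3, 7 and 11 after crush. Its late log2 fold change was 1.62 ± 0.20 (edgeR adjusted p = 1.10e-07). The other copy, mrps31-like.S, was more abundant and went from 19.6 to 23.4 CPM without injury to 58.5 and 51.2 CPM, a change of 1.36 ± 0.13 (edgeR adjusted p = 8.00e-10). mrps12.L lay between 7.33 and 12.5 CPM without injury and at 9.65, 11.8, 29.2 and 20.9 CPM after crush, with a late log2 fold change of 1.43 ± 0.20 (edgeR adjusted p = 9.68e-07). In all 4 of these genes the 2 late libraries were above every uninjured one.

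**Figure D3:**
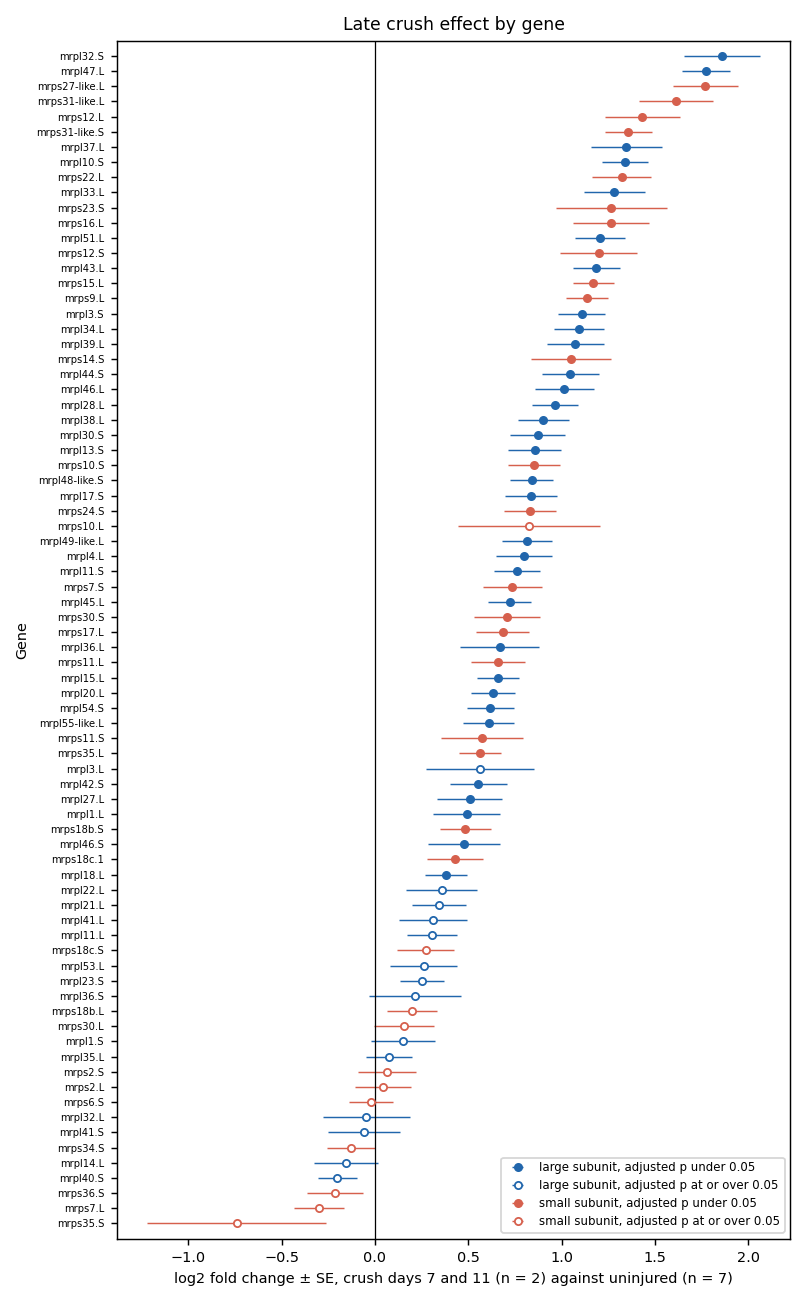
Log2 fold change with its standard error, crush days 7 and 11 (n = 2) against the uninjured TRAP libraries (n = 7), for the 78 mitochondrial ribosomal protein genes with 200 counts or more, with the large subunit in blue and the small subunit in red. Filled points have an adjusted p under 0.05, all of them lie to the right of 0, and genes of both subunits are spread from mrpl32.S at 1.86 to mrps35.S at -0.74.

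A minority of the genes stayed near or under their uninjured level. The lowest late log2 fold changes with 200 counts were -0.74 ± 0.48 for mrps35.S, -0.30 ± 0.13 for mrps7.L, -0.21 ± 0.15 for mrps36.S, -0.20 ± 0.10 for mrpl40.S, -0.16 ± 0.17 for mrpl14.L and -0.13 ± 0.13 for mrps34.S. None passed with TMM scaling (edgeR adjusted p = 0.227, 0.0750, 0.268, 0.122, 0.494 and 0.462). mrpl40.S, for a protein without a bacterial counterpart, was one of the most counted of these genes, with 70.1, 76.3 and 79.7 CPM as lowest, median and highest of the uninjured libraries. It had 71.1, 55.3, 62.6 and 69.1 CPM at days 1, 3, 7 and 11 after crush, below all uninjured libraries from day 3 on. mrps36, although it carries a ribosomal protein name, is known in yeast and mammals as a subunit of the 2-oxoglutarate dehydrogenase complex.

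mrps6.S, the gene with the most transcripts per length, had 67.2, 77.8 and 85.8 CPM as lowest, median and highest of the uninjured libraries. After crush it was at 66.9, 63.6, 67.9 and 87.4 CPM at days 1, 3, 7 and 11. The day 7 value lay within the uninjured range and the day 11 value above it, and the log2 fold change was -0.02 ± 0.12 (edgeR adjusted p = 0.904). The sign of so small a value changed under several other settings.

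As a sum of deposited TPM, a scale without TMM factors, the late difference was small. The summed TPM of the mitochondrial ribosomal protein genes was 2227.6 in total retina and 3567.9 ± 75.8 (SD, n = 7) in the uninjured TRAP libraries, with a range of 3472.5 to 3657.4. After crush it was 3296.2 at day 1 and 3339.5 at day 3, both below that range, and 4198.1 at day 7 and 3940.6 at day 11, both above it. The late mean was 1.14 times the uninjured mean, with 1.19 times for the large and 1.06 times for the small subunit. As a share of counts, not corrected for length, these genes took 0.182%, 0.189%, 0.269% and 0.257% at days 1, 3, 7 and 11, against 0.196% to 0.209% without injury.

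Shares of a library depend on its other genes. Over the same libraries the summed TPM of cytosolic ribosomal protein genes, whose products form the ribosomes of the cytosol, was 40262 to 44743 without injury and 88251 and 90922 at days 7 and 11, with a late mean 2.15 times the uninjured mean. Nuclear genes of the respiratory chain and ATP synthase, whose products assemble with those made by the mitochondrial ribosome, summed to 24673 to 25912 TPM without injury and to 19505 and 20280 TPM at days 7 and 11, 0.782 times. In edgeR's test, 61 of 63 cytosolic ribosomal protein genes were higher late (96.8%, median log2 fold change 1.55). Of 99 respiratory chain genes 36 were higher (36.4%) and 13 lower (13.1%), with a median of 0.14. Over all genes 22.5% were higher and 22.6% lower, with a median of -0.11. The difference between the lists was not tested.

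**Figure D4:**
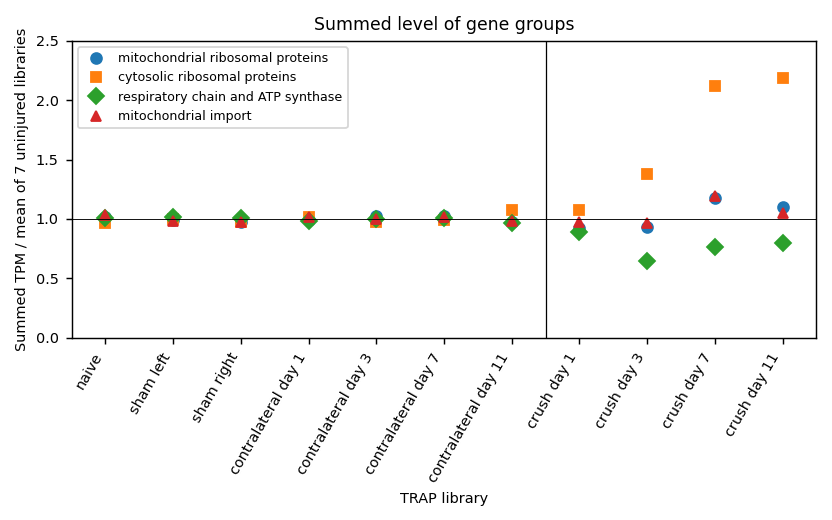
Summed TPM of 4 groups of genes in each TRAP library, divided by the mean of the 7 uninjured libraries, with uninjured libraries left of the vertical line and crush libraries right of it. At days 7 and 11 the cytosolic ribosomal proteins (squares) are near the top, the mitochondrial ribosomal proteins (circles) and mitochondrial import genes (triangles) a little above 1, and the respiratory chain genes (diamonds) below 1.

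Across all 4 days together, no mitochondrial ribosomal protein gene passed. In edgeR's test of crush against contralateral eyes with day as a block, 0 of 79 genes were called, where 0.0385% of all genes were called higher and 0 lower. An unadjusted p under 0.05 was reached by 4 of the 79, and by 5395 of all 26004 genes tested. DESeq2 and limma-voom also called 0 of the 79, where DESeq2 called 6.38% of all genes higher and 5.64% lower, and limma-voom 0.0461% and 0. The median log2 fold change was 0.33. The 4 smallest p belonged to mrpl55-like.L at 0.52 ± 0.18, mrps31-like.L at 0.89 ± 0.34, mrpl32.S at 0.94 ± 0.37 and mrpl43.L at 0.71 ± 0.28 (edgeR adjusted p = 0.223, 0.225, 0.227 and 0.229). Without day 1, 1 of the 79 was called, mrpl47.L, where 6.25% of all genes were higher and 4.14% lower.

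The difference between the eyes grew with time for a few genes past the threshold. The slope of the log2 ratio on log2 day passed for 9 of 79 genes, all rising, where 5.83% of all genes rose and 6.85% fell, and the median slope was 0.28 per doubling of the day, against -0.03 for all genes. mrpl47.L rose by 0.71 ± 0.12 per doubling (edgeR adjusted p = 0.00692), mrpl10.S by 0.52 ± 0.12 (0.0198), mrps31-like.S by 0.54 ± 0.13 (0.0245) and mrps9.L, for the counterpart of bacterial S9, by 0.43 ± 0.11 (0.0306). mrps9.L had 33.2, 45.2, 73.3 and 87.7 CPM in the crushed eye at days 1, 3, 7 and 11, and 36.9, 34.9, 37.4 and 35.5 CPM in the contralateral eye. The crushed eye thus went from below the other at day 1 to above it at each later day.

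The other 5 were mrps15.L, mrpl44.S, mrpl43.L, mrps22.L and mrps11.S. Among the slopes below 0, those with the smallest p were mrps2.L at -0.08, mrpl41.S at -0.06, mrps7.L at -0.04 and mrps34.S at -0.03, and none passed. This fit has 2 residual degrees of freedom, and its count moved with the day left out, to 18 without day 1, 24 without day 3, 1 without day 7 (mrpl47.L) and 0 without day 11. In the same fits 6.10%, 9.63%, 2.19% and 2.2% of all genes rose. With total counts it was 2 (mrpl10.S and mrpl47.L), where 3.39% of all genes rose.

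Copies of the same gene did not always move alike. Of 22 pairs of .L and .S copies, 16 had 100 counts or more in each copy, and the ratio of the copies was compared between the 2 late and the 7 uninjured libraries in a two-sided exact permutation test over 36 splits. The 4 pairs mrpl32, mrps7, mrpl11 and mrps35 reached the smallest p this design allows, 0.0278, and 0 of 16 passed after Benjamini-Hochberg adjustment (adjusted p = 0.111 in each of the 4). The log2 ratio of mrpl32.L to mrpl32.S was -0.11 ± 0.47 (SD, n = 7) without injury and -0.15, -1.70, -2.65 and -1.37 at days 1, 3, 7 and 11 after crush. mrpl32.L itself lay between 7.13 and 10.9 CPM without injury and at 7.06 and 10.4 CPM at days 7 and 11 (log2 fold change -0.05 ± 0.23, edgeR adjusted p = 0.898), while mrpl32.S rose as given above. For mrpl11 the log2 ratio was 0.59 ± 0.17 (SD, n = 7) without injury, 1.53 at day 3 after crush, and 0.38 and -0.15 at days 7 and 11.

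For mrps7, the counterpart of the protein that begins the folding of the head of the small subunit in bacteria, the log2 ratio of .L to .S went from 0.74 ± 0.13 (SD, n = 7) to -0.10 at day 7 and -0.48 at day 11. The .S copy rose from 18.05 to 28.2 CPM to 32.5 and 44.0 CPM (0.74 ± 0.16, edgeR adjusted p = 0.000307), and the .L copy had 30.4 and 31.6 CPM, under its uninjured range of 33.4 to 45.3 CPM. So the copy that was less counted without injury was the more counted one at days 7 and 11. In mrps35 the .L copy had nearly all counts at all times, with a log2 ratio of 4.88 ± 0.41 (SD, n = 7) without injury and 6.00 and 6.27 late. mrps35.L rose by 0.56 ± 0.11 (edgeR adjusted p = 0.000153), from 52.3 to 70.3 CPM to 83.6 and 92.0 CPM.

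mrps30, named for the small subunit but found in the large subunit of the mammalian mitochondrial ribosome, had a log2 ratio of 0.19 ± 0.30 (SD, n = 7) without injury and -0.32 and -0.41 late (exact permutation p = 0.0556). mrps30.S rose by 0.71 ± 0.18 (edgeR adjusted p = 0.00154), a call lost with total counts (edgeR adjusted p = 0.0550) and without the crush library of day 11 (0.104). mrps30.L was at 0.16 ± 0.16 (edgeR adjusted p = 0.460). Reads shared between copies could move each of these ratios, and how far was not tested.

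**Figure D5:**
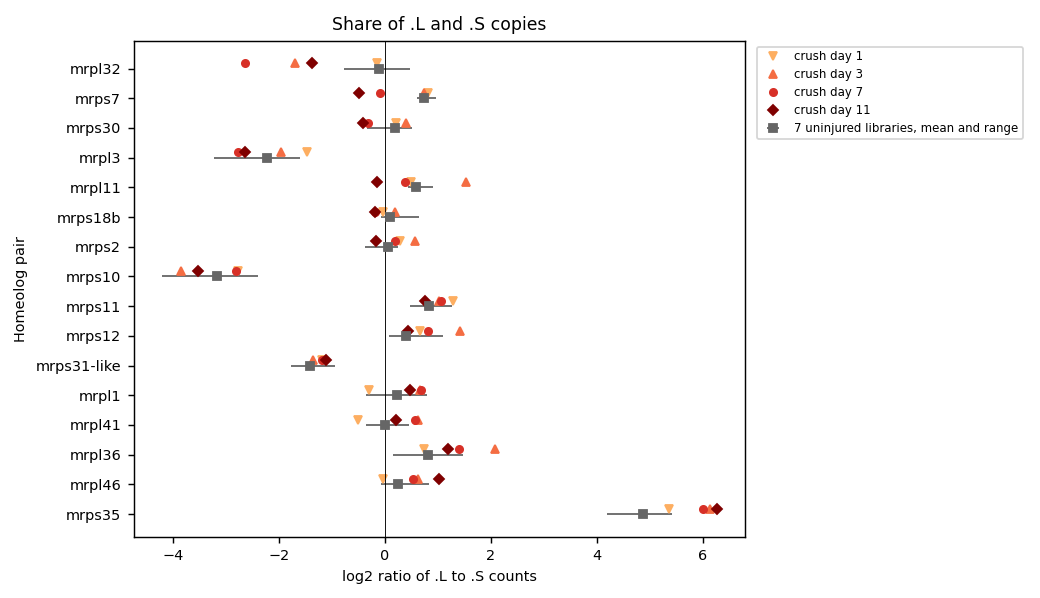
Log2 ratio of the counts of the .L to the .S copy for 16 pairs, with the mean and range of the 7 uninjured libraries (grey squares and bars) and the value of each crush library (coloured symbols). The points of days 7 and 11 lie left of the grey bar for mrpl32, mrps7 and mrpl11 and right of it for mrps35, and within or near the bar for most other pairs.

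Other genes of mitochondrial translation were looked at as lists, in the same late comparison with edgeR's test, where 22.5% of all genes were higher and 22.6% lower. Of 7 genes for mitochondrial ribosomal proteins under other symbols, 5 rose and 0 fell (median log2 fold change 0.79). dap3.L, which encodes a GTP-binding protein of the small subunit, rose by 1.27 ± 0.14 (edgeR adjusted p = 1.34e-08), from 14.1 to 18.2 CPM to 39.3 and 39.4 CPM. ptcd3.L, for an RNA-binding protein of the small subunit, rose by 0.91 ± 0.12 (7.59e-07), and ict1.L, for a peptidyl-tRNA hydrolase within the large subunit, by 0.93 ± 0.16 (2.56e-05).

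Among 21 genes for ribosome assembly and modification of mitochondrial ribosomal RNA, 13 rose and 1 fell (median 0.73). trub2.L, for a pseudouridine synthase, rose by 1.90 ± 0.17 (edgeR adjusted p = 4.54e-10), from 9.06 to 16.9 CPM to 44.7 and 44.1 CPM. fastkd2.L, for an RNA-binding protein of mitochondrial RNA granules, rose by 1.52 ± 0.15 (2.23e-09), and gtpbp10.S, for a GTPase of large subunit assembly, by 1.39 ± 0.22 (7.33e-06). malsu1.L, for a factor that binds the large subunit and keeps the small one from joining, fell by 0.53 ± 0.16 (0.00847).

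Of 10 genes for translation factors of mitochondria, 7 rose and 1 fell (median 0.86). oxa1l.L, for the insertase that places new proteins into the inner membrane, rose by 1.14 ± 0.12 (edgeR adjusted p = 1.19e-08), gfm1.L, for an elongation factor, by 1.35 ± 0.15 (1.51e-08), and tsfm.S, for the exchange factor of elongation factor Tu, by 1.34 ± 0.20 (2.23e-06). mtif3.L, for an initiation factor, fell by 0.59 ± 0.16 (0.00267). Of 9 genes for aminoacyl-tRNA synthetases of mitochondria, 6 rose and 0 fell (median 0.88), with rars2.S (arginine) at 1.73 ± 0.22 (2.94e-07), ears2.L (glutamate) at 1.57 ± 0.23 (2.01e-06) and ears2.S at 0.86 ± 0.23 (0.00290).

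Of 21 genes for the upkeep of mitochondrial DNA and the making and processing of its RNA, 13 rose and 1 fell (median 1.00). lrpprc.L and slirp.L, whose products bind each other and stabilise mitochondrial messenger RNA, rose by 1.43 ± 0.11 (edgeR adjusted p = 1.00e-11) and 1.00 ± 0.12 (9.67e-08), and the thymidine kinase gene tk2.S by 1.17 ± 0.12 (1.00e-08). hsd17b10.S, for a subunit of mitochondrial RNase P, fell by 0.62 ± 0.17 (0.00345). Import genes had 22 of 29 higher and 1 lower (median 0.84), led by grpel1.L (1.73 ± 0.11, 2.35e-13) and pmpca.S (1.73 ± 0.11, 6.91e-13), for an exchange factor of the import motor and a subunit of the presequence peptidase. Next by p came timm9.L, which rose by 1.54 ± 0.14 (edgeR adjusted p = 6.09e-10). The exception was dnajc19.L of the import motor, which fell by 0.78 ± 0.16 (0.000200).

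Chaperones and proteases of mitochondria had 11 of 12 genes higher and 0 lower (median 1.18). hspa9.L, for the mitochondrial Hsp70, rose by 2.52 ± 0.10 (edgeR adjusted p = 4.13e-17), from 51.1 to 70.2 CPM without injury to 359.3 and 317.4 CPM at days 7 and 11. hspa9.S rose by 1.47 ± 0.09 (3.17e-13) and phb2.S, for a prohibitin, by 1.31 ± 0.10 (1.10e-11). afg3l2.L and spg7.1, which encode the subunits of the m-AAA protease mentioned with mrpl32, rose by 1.05 ± 0.13 (2.46e-07) and 0.67 ± 0.13 (0.000112).

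Among 8 gene models for nuclear factors known as regulators of mitochondrial genes, 1 rose and 1 fell (median -0.07), and these were the copies of mycn, which encodes the transcription factor N-Myc. mycn.L rose by 1.41 ± 0.24 (edgeR adjusted p = 0.000296), from 19.0 to 26.7 CPM without injury to 85.1 CPM at day 7 and 33.6 CPM at day 11. mycn.S fell by 2.35 ± 0.28 (6.37e-08), from 11.5 to 21.3 CPM to 2.502 and 3.471 CPM. Both copies of esrra, gabpa and ppargc1a passed in neither direction. The copies of ppargc1a were scarce, with uninjured means of 0.67 CPM (.L) and 1.0 CPM (.S). Their standard errors were 1.07 and 0.55 on the log2 scale, so only a large change could have passed.

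Markers of cell types were looked at in the same late comparison, where 22.5% of all genes were higher and 22.6% lower. Of 16 ganglion cell marker genes tested, 14 fell and 0 rose (median log2 fold change -3.62). Photoreceptor markers had 15 of 21 lower and 0 higher, with sums of 993.98 to 1381.8 TPM without injury and 612.25 and 623.87 TPM late, and bipolar markers 5 of 10 lower, with 76.17 to 101.82 TPM and then 24.12 and 23.61 TPM. Amacrine and horizontal cell markers had 6 of 15 lower, from 82.11 to 88.45 TPM to 46.29 and 42.03 TPM. Mueller glia and astrocyte markers had 6 of 13 higher and 2 lower, from 207.0 to 273.74 TPM to 262.81 and 449.72 TPM. The day 7 sum lay within the uninjured range. The gene vim.L went from 5.15 to 10.9 CPM without injury to 191.6 and 392.8 CPM late. The 2 lower genes were the copies of ca2, and both copies of rlbp1 passed in neither direction.

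Leukocyte and microglia markers, of which 2 of 11 symbols were matched, summed to at most 0.84 TPM without injury and to 0.31 and 0.47 TPM late. ptprc.L, at 0 in both late libraries, did not pass the filter on low counts. Oligodendrocyte and Schwann cell markers went from 308.79 to 380.2 TPM to 98.67 and 74.22 TPM. Genes of this list moved in opposite directions, with 2 of 8 higher and 2 lower (25% each). In naive TRAP RNA this list stood at 2.02 times total retina, where the photoreceptor list stood at 0.054 times. By far the most counted gene of the list was mpz.L, and the cells its transcripts came from were not tested. mpz.L went from 560.3 to 712.9 CPM without injury to 103.1 and 65.76 CPM, and mbp.S was also lower. pmp22.L and pmp22.S rose by 2.98 and 3.13 on the log2 scale. mpz.S, at 0 late, had an uninjured mean of only 0.14 CPM. Endothelial and blood cell markers went from 21.91 to 67.4 TPM to 28.81 and 20.57 TPM (0 of 10 called). alas2.1 and cdh5.S, at 0 late, had uninjured means of only 0.081 and 0.050 CPM. Pigment epithelium markers went from 9.72 to 23.49 TPM to 3.86 and 3.80 TPM (2 of 5 lower). dct.S had no count in any TRAP library, and tyrp1.S, at 0 late, did not pass the filter on low counts. The part of these shifts in the values of the mitochondrial ribosomal protein genes was not tested.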

How the data were processed

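RNA-seq libraries of poly(A) RNA were analysed from tables with 1 row per gene model. The submitters' processing notes name the read trimmer Trimmomatic 0.33, the aligner Bowtie2 2.2.5 and the quantifier RSEM 1.2.21. No source used here gives the build or gene annotation, so no positions are printed. Per the file headers, the authors deposited for each gene model its expected count, 57.9% of which were whole within 0.001, and its TPM. For the tests the expected counts were rounded, with a change of at most 0.000797% in a library's total. Deposited TPM served for levels between genes and for sums. Of the 85 genes, 67 matched by symbol the RefSeq gene table of assembly Xenopus_laevis_v10.1, used for names only.

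Counts were tested with edgeR 4.0.16 (robust quasi-likelihood fit, TMM scaling, filterByExpr) in R 4.3.3, with Benjamini-Hochberg adjustment over all genes at 0.05. The late comparison was fitted on 11 TRAP libraries (7 residual degrees of freedom), with uninjured, crush day 1, crush day 3 and late crush as groups, without total retina. The 7 uninjured libraries differ in surgery and day and are taken as replicates, so p-values rest on the spread among them and between days 7 and 11. Each edgeR fit also draws on variance shared over all genes, so its p-values do not rest on its residual degrees of freedom alone. The 4-day and slope tests used 4 crush and 4 contralateral libraries with day as a block, since both eyes of a day come from the same frogs per the protocol; deviations from group means correlated across genes at 0.0832, 0.0593, 0.0461 and 0.0432 at days 1, 3, 7 and 11. Ratios of single libraries use log2 CPM with a prior count of 2. Errors are standard errors unless marked SD. They were worked out from the log2 fold change and the F statistic of edgeR's test, so they hold the same shared variance. DESeq2 1.42.0 and limma 3.58.1 (voom) were alternatives. The tests were tested on simulated data, with changes given to few genes drawn at random over all levels. In the data 22.5% of all genes were called higher late and 22.6% lower. The shares recovered therefore do not apply to the mitochondrial ribosomal protein genes. Of genes changed by 1 on the log2 scale, 42.4% were recovered in the late design and 1.54% over 4 days. For the slope, 70.8% were recovered of genes given 1 per doubling of the day, and 33.8% of those given 0.585. A slope of 1 per doubling is not the same size of effect, so these shares cannot be set beside the others. The slope test also called 20 genes that were not changed, beside 22, 46 and 54 recovered at 0.585, 1 and 2. Such false calls numbered 5 in the late design and 2 over 4 days.

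The genes and lists were chosen with earlier results of these data known; the lists of cytosolic ribosomal proteins and of the respiratory chain, and the division by bacterial counterpart, were added after values had been seen. Named are the 6 genes highest by TPM, and the 6 highest and 6 lowest late fold changes with 200 counts. Also named are the 4 pairs whose copies differ most. The 4 smallest p of the slope in each direction and of the 4-day test were added. Each mitochondrial list gave its 3 smallest p and the members called against the others. A few more, such as those over 2-fold lower on a single day and the m-AAA protease genes, were picked after their values were seen. Promoter motifs were planned and are not analysed here.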

Additional observations from a re-analysis of the deposited data

Results flagged for a closer look

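Among 87 groups of 4 or 7 libraries checked for a library far from the rest, over 28 named genes and the summed level, 2 held one, and chance alone flags about 1 in 20 such groups. mrpl33.L was at 26.14 CPM in the contralateral eye of day 3, against 19.22 CPM at the lowest of the contralateral eyes. mrps34.S was at 62.58 CPM in the contralateral eye of day 7, against 52.23 CPM at the lowest.

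The crush effect differed between days, by the test of its slope on log2 day, for 5 named genes (per doubling of the day): mrpl10.S at 0.52, mrpl43.L at 0.42, mrpl47.L at 0.71, mrps31-like.S at 0.54 and mrps9.L at 0.43. All but mrpl43.L were named for their small p in this same test, so the flag adds nothing to it. In that test 9 of 79 mitochondrial ribosomal protein genes and 5.83% of all genes passed as rising.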

How the results depend on the processing

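The count of 53 genes higher late lay between 43 and 58 over all alternatives run with copies kept apart, with 0 lower except 6 with total counts. It was 56 with DESeq2 size factors, 56 in DESeq2, 58 in limma-voom and 52 without the filter, where 23.5%, 22.6%, 25.1% and 19.9% of all genes were higher. It was 52 to 54 with 1 uninjured library left out (22% to 23.3% of all genes higher), and 50 of 61 with copies summed (23.7%). With days 7 and 11 paired with their contralateral eyes (day as replicate block) 49 were called, 48 of them among the 53, where 22.6% of all genes were higher. In that fit the median log2 fold change was 0.78. The paired fit leaves 1 residual degree of freedom. It reuses the same late libraries and 2 of the uninjured ones, so the overlap of its calls with the 53 is no independent check. The median of 0.67 in the reported fit was 0.39 with total counts, 0.82 with copies summed, 0.72 with contralateral eyes alone, and 0.66 to 0.80 with 1 library left out. Single-day medians with total counts were 0.39 at day 7 and 0.47 at day 11. In the 4-day test the count was 0 under every alternative, also with no replicate block (18 at an unadjusted p under 0.05), except that leaving out 1 day gave 0 to 1. How many of all genes reached that unadjusted threshold without the block was not counted. The slope count of 9 was 2 with total counts, 21 in DESeq2 and 22 in limma-voom, where 3.39%, 8.34% and 8.34% of all genes rose. It was 0 to 24 with 1 day left out, with the shares of all genes as given above. Slope calls were lost for mrps31-like.S and mrps9.L with total counts (adjusted p = 0.0606 and 0.0867), without day 1 (0.0811 and 0.0983), without day 7 (0.107 and 0.114) and without day 11 (0.0709 and 0.255), for mrpl10.S without day 7 (0.0806) or 11 (0.157), for mrpl43.L with total counts (0.105) and without day 7 (0.146) or 11 (0.294), and for mrpl47.L without day 11 (0.0503). With 50 counts per copy, 0 pairs passed as well.

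Late log2 fold changes near 0 changed sign for 7 named genes, none of them called with TMM scaling in the reported fit; with total counts mrpl14.L (adjusted p = 0.0435), mrps34.S (0.0171) and mrps6.S (0.0365) were called lower. mrps6.S turned to 0.0200 with DESeq2 size factors, 0.0201 in DESeq2, 0.0059 with contralateral eyes alone, 0.0805 paired and 0.0113 without crush days 1 and 3. mrps2.L turned to -0.23 with total counts, -0.0022 with contralateral eyes alone and -0.0506 paired, mrps30.L to -0.12 with total counts and mrpl32.L to 0.0454 with contralateral eyes alone. With 1 library left out the values ran from -0.19 to 0.19 for mrps6.S, -0.32 to 0.0510 for mrpl14.L, -0.32 to 0.25 for mrpl32.L, -0.21 to 0.14 for mrpl41.S, -0.10 to 0.23 for mrps2.L, -0.0240 to 0.38 for mrps30.L and -0.26 to 0.0531 for mrps34.S. With 1 day left out slopes ran from -0.21 to 0.28 for mrpl41.S, -0.13 to 0.0146 for mrps2.L, -0.17 to 0.0019 for mrps34.S and -0.0784 to 0.0191 for mrps7.L. The cause of these shifts was not tested. A lone late library is assumed to vary like the other groups. The smallest p of the copy ratios, 0.0278, cannot pass over 16 pairs unless many share it.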
